A study of Mus musculus with 2 samples.

Results

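The 7 genes described here encode secreted matrix proteins and regulators of matrix breakdown: Spp1, Mmp2, Mmp3, Timp1, Timp2, Dcn and S100a4. They were taken by symbol from the 33696 genes of the deposited matrix, all 7 were found, and 26873 genes had at least 1 UMI (a counted transcript molecule) in the cells kept. The genes were chosen with their measured levels in these same cells in view, so their high levels in fibroblast-like cells are given as a description and with no test. The labels describe 2 mouse samples of the cell line Delmix, 1 per group, whose RNA was sequenced cell by cell. The first was untreated epiblast stem cells, a culture of primed pluripotent cells. The other was embryoid bodies, aggregates in which such cells differentiate and which were at day 2 after their formation from those cells. Both groups share the Delmix line and carry no further allele or agent in the labels. The counts lie in 1 pooled matrix whose cell tags match no sample label, so no value below belongs to either sample and the samples could not be compared.

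The extracellular matrix is a mesh of collagens, proteoglycans and glycoproteins that fibroblasts lay down and remodel. Matrix metalloproteinases cut its proteins, and the TIMP inhibitors bind these enzymes and block them. Decorin (Dcn) is a small leucine-rich proteoglycan that coats collagen fibrils, osteopontin (Spp1) is a secreted phosphoprotein that binds integrins and CD44, and S100a4 is a calcium-binding protein found in fibroblasts and in myeloid cells. Feeder fibroblasts and macrophages are both known sources of osteopontin, and pluripotent cells of the inner cell mass are another. The Spp1 gene is known for a palindromic octamer element in its first intron, where dimers of the pluripotency factor POU5F1 bind.

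Of 21593 called cells, 16841 (78.0%) passed the thresholds of 1000 genes or more and no more than 10% of UMIs from mitochondrial genes. These kept cells held 121114764 UMIs, with a median of 6473 per cell. They fell into 11 clusters, found without the 7 genes themselves, and 10 of these had at least 100 cells. Cluster 8 (527 cells, median 7391 UMIs) was fibroblast-like: each of 15 fibroblast markers was raised by 2-fold or more over the other kept cells, with a summed level of 7665 CPM (counts per 1000000 UMIs of the cluster) against 65.9 CPM. Cluster 11 (81 cells, median 3991 UMIs) was macrophage-like, with 12 of 12 macrophage markers raised. Cluster 1 (4918 cells, median 6820 UMIs) was naive pluripotency-like, with 12 of 13 naive markers raised. Cluster 2 (4718 cells, median 6241 UMIs) was left unnamed and was led by Car4, Pim2, Fgf5 and Pou3f1. All intervals are 95% intervals that cover counting error only.

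The sequences ahead of the start sites of Spp1 and Mmp3 are shown because these genes varied together from cell to cell and because Spp1 was more often found in cells with naive pluripotency markers. The sequences are 250 bases long, end at the base before a start site, and come from RefSeq on build GRCm38.p6, whose table held 5 of the 7 genes. Motif matches on either strand are in capitals. The motifs searched were AP-1 (TGANTCA), the TATA box (TATAAA), the octamer of POU factors (ATGCAAAT) and the RUNX site (AACCACA).
Spp1 first start, chr5:104434861-104435110, plus strand: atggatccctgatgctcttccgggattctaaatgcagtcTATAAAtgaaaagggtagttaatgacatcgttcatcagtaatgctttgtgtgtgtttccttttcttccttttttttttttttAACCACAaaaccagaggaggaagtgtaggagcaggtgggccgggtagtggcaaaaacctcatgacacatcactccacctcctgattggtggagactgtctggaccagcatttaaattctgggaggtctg
Spp1 second start, chr5:104435942-104436191, plus strand: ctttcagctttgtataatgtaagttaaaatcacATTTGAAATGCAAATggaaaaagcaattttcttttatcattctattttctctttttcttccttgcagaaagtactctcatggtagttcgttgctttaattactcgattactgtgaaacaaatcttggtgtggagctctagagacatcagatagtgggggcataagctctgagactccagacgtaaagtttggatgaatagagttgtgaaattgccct
Mmp3, chr9:7445572-7445821, plus strand: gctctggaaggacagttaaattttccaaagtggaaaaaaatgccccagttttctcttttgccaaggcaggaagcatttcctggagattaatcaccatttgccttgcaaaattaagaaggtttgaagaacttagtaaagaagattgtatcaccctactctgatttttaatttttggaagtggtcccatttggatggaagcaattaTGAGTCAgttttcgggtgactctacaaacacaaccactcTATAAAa

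The stretch ahead of the second Spp1 start lay within the first intron of Spp1-201 in GENCODE M21, whose exon 1 ends at base 104435196 and whose exon 2 begins at base 104436375. It held the octamer ATGCAAAT at position -210 from the start, directly preceded by the partial site ATTTGNN at position -217, and both are shown as 1 run of capitals. Of 32851 promoter windows of 300 bases in the table, 570 (1.74%) held the octamer and 2 held the octamer with this partial site ahead of it. The stretch ahead of the first Spp1 start held TATAAA at -211 and AACCACA at -129; these motifs stood in 13.6% and 5.27% of all windows. The Mmp3 stretch held the AP-1 sequence TGAGTCA at -46 and TATAAA at -7, and 7.81% of all windows held AP-1. S100a4 had TATAAA at -31, and the windows of Timp1 and Timp2 held none of the motifs. A match describes letters and is not a measured binding site.

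Spp1 (ENSMUSG00000029304, chr5:104435118-104441050) was present in 3 settings at very different levels. It stood at 5760 CPM (exact Poisson interval 5690 to 5829) in the fibroblast-like cluster and at 10158 CPM (9859 to 10463) in the macrophage-like cluster. In the naive pluripotency-like cluster it stood at 186 CPM (182 to 191), and in the remaining 8 clusters between 28.5 and 135 CPM. The macrophage-like level was thus 1.76-fold that of the fibroblast-like cluster (1.71 to 1.82), and Spp1 was the only 1 of the 7 genes whose highest level lay outside the fibroblast-like cluster. Without cells called doublets, 23.9% of the fibroblast-like and 21.0% of the macrophage-like cells, the levels were 6719 and 13299 CPM. Although its level per UMI was highest in the macrophage-like cells, these held 10.7% of all Spp1 UMIs, against 65.1% in the fibroblast-like and 16.8% in the naive pluripotency-like cluster.

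With each cell thinned to 2000 UMIs, 93.8% of macrophage-like cells had an Spp1 UMI (exact binomial interval 86.0 to 97.9%, 80 cells). The share was 72.1% in fibroblast-like cells (68.0 to 75.9%, 526 cells) and 27.1% in naive pluripotency-like cells (25.9 to 28.4%, 4881 cells). In cluster 2 it was 4.82% (4.23 to 5.48%). Without thinning the 4 shares were 97.5%, 81.0%, 54.6% and 14.1%. Most macrophage-like cells therefore carried Spp1, while more than 1 in 4 fibroblast-like cells showed none at this depth.

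Of the osteopontin receptors and integrin partners, 5 of 10 were assessed, meaning that they reached 20 CPM in the fibroblast-like cluster or in the other cells, and all 5 stood at least 2-fold above the other cells in the fibroblast-like cluster, where 17.5% of all genes assessed did so. In the macrophage-like cluster 4 of 6 did, against 14.9% of all genes assessed. Cd44, a hyaluronan and osteopontin receptor, stood at 178 CPM in the fibroblast-like, 167 CPM in the macrophage-like and 0.461 CPM in the naive pluripotency-like cluster. Itga5, an integrin alpha chain, stood at 37.9, 27.8 and 5.94 CPM in the same clusters, and Itgb5, an integrin beta chain, at 114, 99.7 and 31.3 CPM. The naive pluripotency-like cluster, which also held Spp1, thus had little Cd44. In the cells outside the fibroblast-like cluster Cd44 and Itga5 stood at 4.37 and 7.42 CPM. Both were therefore assessed only through that cluster and could not be called lower there.

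**Figure D1:**
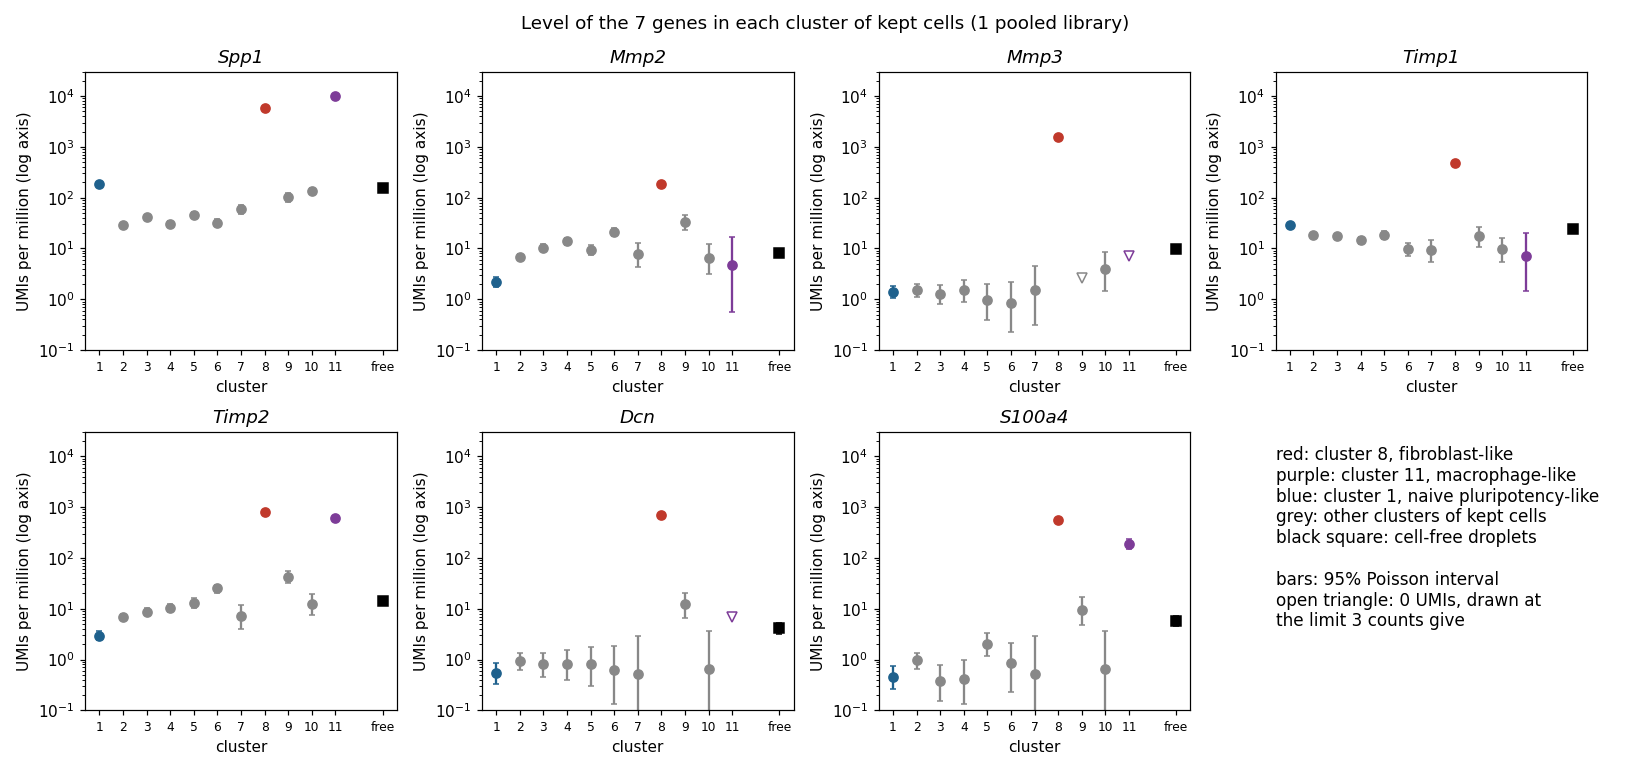
Level of each gene in 11 clusters of kept cells and in cell-free droplets, as CPM on a log axis, with exact Poisson 95% intervals; an open triangle marks 0 UMIs, drawn at the limit that 3 counts give. All 7 genes were high in cluster 8 (red), and 3 of them, Spp1, Timp2 and S100a4, also in cluster 11 (purple). Spp1 was the highest of the 7 in each of the 11 clusters, and stood at 186 CPM in cluster 1 (blue).

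The 2 metalloproteinases were both concentrated in fibroblast-like cells. Mmp3, stromelysin-1, which cuts proteoglycans and other matrix proteins (ENSMUSG00000043613, chr9:7445822-7455975), stood at 1571 CPM (1535 to 1608) in the fibroblast-like cluster and at no more than 3.95 CPM in any other. That cluster held 97.8% of its UMIs. Mmp2, gelatinase A, which digests basement membrane and denatured collagen (ENSMUSG00000031740, chr8:92827291-92853420), stood at 183 CPM (171 to 196) there. Its lower levels were graded: 32.9 CPM in the neural-like cluster 9, 21.2 CPM in cluster 6 with primitive streak and mesoderm markers, 13.8 CPM in cluster 4 and 2.20 CPM in the naive pluripotency-like cluster. The fibroblast-like cluster accordingly held 48.5% of Mmp2 UMIs.

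The 2 inhibitors differed from each other in the macrophage-like cells. Timp1, an inducible inhibitor (ENSMUSG00000001131, chrX:20870166-20874735), stood at 484 CPM (464 to 504) in the fibroblast-like cluster, and the macrophage-like cluster had 3 UMIs, or 6.95 CPM (1.43 to 20.3). Timp2, which also takes part in activating pro-MMP2 with MMP14 at the cell surface (ENSMUSG00000017466, chr11:118301069-118355740), stood at 805 CPM (779 to 831) in the fibroblast-like cluster and at 603 CPM (532 to 681) in the macrophage-like cluster. The fibroblast-like level was 69.6-fold the macrophage-like level for Timp1 (23.8 to 338) and 1.34-fold for Timp2 (1.18 to 1.52). Outside these clusters Timp1 was highest in the naive pluripotency-like cluster, at 29.2 CPM, and Timp2 in the neural-like cluster, at 42.5 CPM.

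Dcn (ENSMUSG00000019929, chr10:97479609-97518143) stood at 685 CPM (662 to 710) in the fibroblast-like cluster, which held 96.9% of its UMIs, and at 12.1 CPM (6.64 to 20.4) in the neural-like cluster 9. In each of the remaining clusters it was below 1 CPM, and in the macrophage-like cluster it had no UMI, which allows up to 6.95 CPM. S100a4 (ENSMUSG00000001020, chr3:90603771-90606045) stood at 552 CPM (531 to 574) in the fibroblast-like, 188 CPM (149 to 233) in the macrophage-like and 9.54 CPM in the neural-like cluster. S100a4 thus went with Timp2 and Spp1 in being present in the macrophage-like cells, and Dcn with Mmp3 in not being detected there. In the neural-like cluster, where Mmp2, Timp2, Dcn and S100a4 each stood above most other clusters, all 15 fibroblast markers were detected and 3 were raised. Their summed level was 665 CPM against 352 CPM in the other cells. Those other cells include the fibroblast-like cluster, at 7665 CPM, and the remaining clusters stood between 23.2 CPM in cluster 11 and 260 CPM in cluster 6. Smooth muscle and pericyte markers summed to 305 CPM in the neural-like cluster against 98.98 CPM in the other cells. The part of such cells or RNA in these 4 levels was not tested. The annotation used for positions is GENCODE M21 on GRCm38, which may differ from the authors' build.

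Set against all other kept cells, the fibroblast-like cluster had a higher level of each of the 7 genes by at least 2-fold, the contrast that the choice of genes rests on. The folds of CPM were 47.1 for Spp1, 23.8 for Mmp2, 1137 for Mmp3, 23.4 for Timp1, 80.3 for Timp2, 799 for Dcn and 372 for S100a4. Over all 7845 genes assessed, 17.5% were at least 2-fold higher and 13.8% at least 2-fold lower in this cluster, and nothing is read from the count of 7. The log2 ratio of Mmp3 was 9.37 with a pseudocount of 1 CPM and 7.96 when cells were classed by at least 5 collagen UMIs.

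The macrophage-like cluster split the genes. Of 6 assessed, Spp1, Timp2 and S100a4 were at least 2-fold higher than in all other kept cells, and Mmp3, Timp1 and Dcn were at least 2-fold lower, while Mmp2 was under 20 CPM on both sides and was not assessed. The backgrounds were 14.9% higher and 22.4% lower among 7740 genes. The other kept cells include the fibroblast-like cluster, which held 97.8% of Mmp3, 96.9% of Dcn and 48.1% of Timp1 UMIs. Against the fibroblast-like cluster directly, Mmp3 was at least 226-fold and Dcn at least 98.6-fold lower, taking 3 counts in the macrophage-like cluster as the floor, and the exact intervals of these folds begin at 184 and 80.1. The levels of fibroblast markers in the macrophage-like cluster summed to 23.2 CPM, with 4 of 15 detected, at most 16.2 CPM each, and 11 at 0, among them Lum, Postn and Pdgfra. Macrophage markers summed to 9.10 CPM in the fibroblast-like cluster, with 8 of 12 detected and C1qb, C1qc, Aif1 and Adgre1 at 0. The part of such carried-over RNA in the levels of the 3 shared genes was not tested.

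Over the 11 clusters Spp1, Timp2 and S100a4 were closer to each other than to the other 4 genes. Pearson's r of log2(CPM + 1) was 0.92 for Spp1 with S100a4, 0.87 for Spp1 with Timp2 and 0.97 for Timp2 with S100a4. It was 0.92 for Mmp3 with Timp1, 0.89 for Mmp3 with Dcn, 0.92 for Timp1 with Dcn and 0.90 for Mmp2 with Dcn, but 0.74 for Mmp2 with Mmp3 and 0.73 for Mmp2 with Timp1. Pairs across the 3 and the 4 genes lay between 0.27 for Spp1 with Mmp2 and 0.69 for Dcn with S100a4, the latter close to the lowest pairs among the 4. These values describe 11 points of 1 library that are shaped by clusters 8 and 11, and they carry no p-value. Among genes with at least 20 CPM in their highest cluster, the patterns most like that of Spp1 were Fcgrt (r = 0.98), Ifi47 (0.97) and Lgals8 (0.97). For Mmp3 they were Steap4, Srpx and Il1rl1 (each 0.99), for Dcn Nnmt, Lum and Cxcl9 (each 0.99), and for S100a4 Ifi202b, Ifi211 and Casp4 (each 0.99). For Mmp2 they were Oaf (0.97), Pappa and Slc25a51 (each 0.96), for Timp1 S100a16 (0.97), Serpina3g and Clca3a1 (each 0.95), and for Timp2 Cd302, Hyi and Cd47 (each 0.99).

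The 7 genes differed in how their UMIs were spread over the fibroblast-like cells. Among 400 cells without doublets, thinned to 2000 UMIs, Spp1 ranged from 0 to 225 UMIs with a median of 5, and the 40 cells with the most held 51.5% of its UMIs. Mmp3 ranged from 0 to 103 UMIs with a median of 0, and 40 cells held 67.1% of its UMIs. The top 40 cells held 52.9% of Timp1, 50.5% of Mmp2, 45.7% of S100a4, 44.2% of Dcn and 29.6% of Timp2 UMIs, so by this share Mmp3 stood highest and Spp1 did not stand apart from Timp1 and Mmp2. Timp2 had a range of 0 to 11 UMIs and a median of 2. The Fano factor, the variance over the mean, was 44.9 for Spp1, 27.2 for Mmp3, 5.52 for Timp1, 3.76 for Dcn, 3.21 for S100a4, 1.82 for Timp2 and 1.36 for Mmp2, an order that also follows the genes' mean counts in part. Dcn ranged to 21 UMIs with a median of 1, Timp1 to 34 and S100a4 to 13 with medians of 0, and Mmp2 to 5 UMIs with a median of 0. In the 63 macrophage-like cells Spp1 had a median of 14 UMIs and a range of 0 to 142, with a Fano factor of 28.3.

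**Figure D2:**
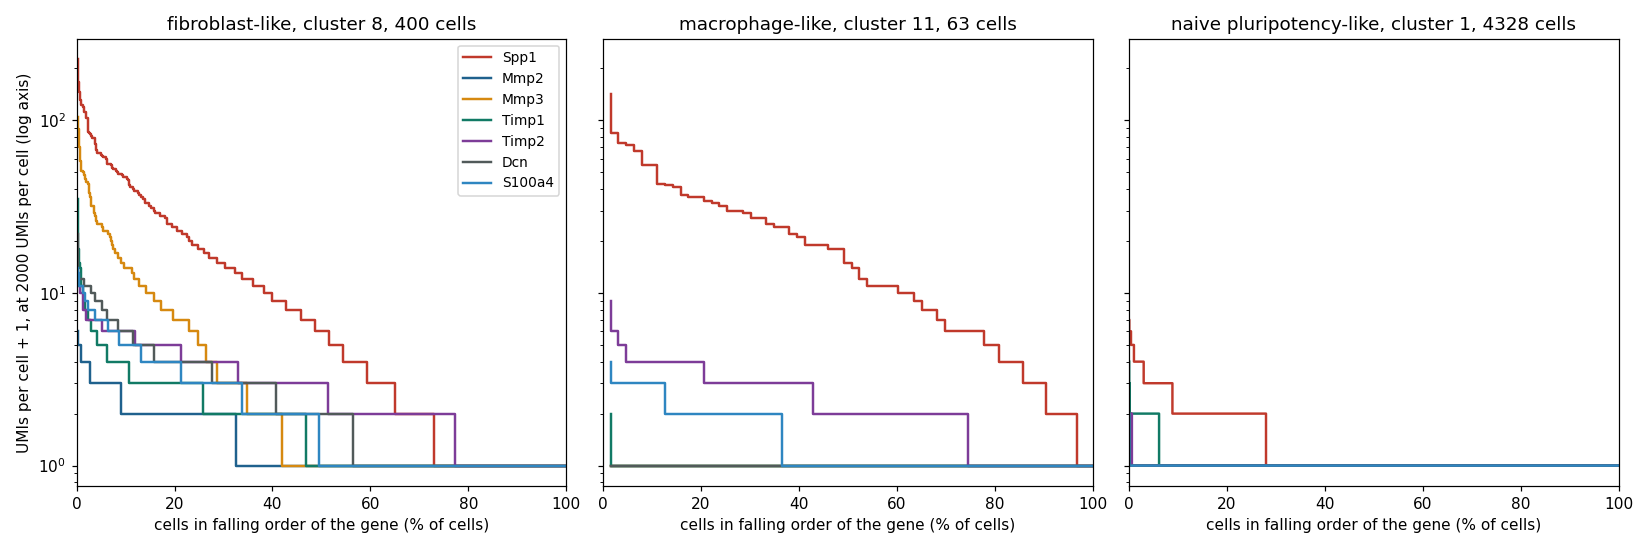
UMIs per cell plus 1, on a log axis, with cells of each cluster in falling order of the gene, after thinning to 2000 UMIs and without called doublets; 1 line per gene. The lines of Spp1 and Mmp3 fall steeply in the 400 fibroblast-like cells, Spp1 is at 1 or more UMIs in nearly all of the 63 macrophage-like cells, and in the 4328 naive pluripotency-like cells Spp1 reaches 6 UMIs at most.

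The share of fibroblast-like cells with a UMI, thinned, was 70.3% for Timp2 (66.2 to 74.2%), 52.7% for Dcn (48.3 to 57.0%), 44.5% for S100a4 (40.2 to 48.8%), 42.0% for Timp1 (37.8 to 46.4%), 39.5% for Mmp3 (35.3 to 43.9%) and 28.3% for Mmp2 (24.5 to 32.4%). In naive pluripotency-like cells, of median depth 6820 UMIs against 7391, the shares were 0.553% for Timp2, 0.143% for Dcn, 0.102% for S100a4, 6.13% for Timp1, 0.287% for Mmp3 and 0.410% for Mmp2. They went up to 6.73% for Mmp2, 7.69% for Timp2, 2.40% for Dcn and 1.92% for S100a4 in the neural-like cluster. Without thinning, 93.5% of fibroblast-like cells had a Timp2 UMI and 63.8% an Mmp2 UMI. Of the 400 fibroblast-like cells without doublets, 9 had none of the 7 genes, 119 had 4 and 6 had all 7. Of 63 macrophage-like cells, 31 had 2 of the genes, 19 had 3 and none had more, which allows up to 4.76%.

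Within the fibroblast-like cells the genes mostly varied apart. Over 400 cells, Spearman's rho between Spp1 and Mmp3 was 0.37, the highest of the 21 pairs, and it lay between 0.32 and 0.37 over 5 draws of the thinning. UMIs of both were found in 37.0% of cells, where the product of their shares was 30.7%. Next were Timp1 with S100a4 at 0.19 (0.08 to 0.19 over the draws), Mmp2 with Mmp3 at 0.15 (0.15 to 0.25), Spp1 with Mmp2 at 0.14 and Mmp3 with Dcn at 0.14. In this draw these 5 pairs exceeded 0.13, the 99th percentile of all 5473086 pairs of the 3309 genes with a UMI in at least 10% of cells, whose median was near 0. Of them, Spp1 with Mmp3 and Mmp2 with Mmp3 lay above that value in each of the 5 draws, whereas Spp1 with Mmp2 fell to 0.10 and Mmp3 with Dcn to 0.06 in the lowest draw. Between enzyme and inhibitor, rho was -0.03 for Mmp3 with Timp1 (-0.08 to -0.02 over the draws) and 0.02 for Mmp2 with Timp2 (-0.03 to 0.14), and the latter was 0.17 with doublets left in. All cells come from 1 library, and weak values between sparse counts are read neither as relations nor as a lack of them.

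Other genes were ranked by their rho with each member in the same cells. Crabp1, a retinoic acid binding protein, had a rho of 0.44 with Mmp3, and Lum, a proteoglycan of the same family as decorin, had a rho of 0.39 with Dcn. S100a6 and S100a11, calcium-binding relatives, had a rho of 0.39 and 0.33 with S100a4, and Ctsl, a lysosomal protease, had 0.31 with Spp1, below the 0.37 of Mmp3. Each of these 5 stayed among the 3 most similar genes in 4 of 4 other draws. The most similar genes of Timp2, Laptm4a, H2-K1 and Lgals3bp, were among the first 3 in none of the 4 draws, and those of Mmp2, Col3a1, Agtr2 and Cxcl5, in 1 each. The lowest rho of Spp1 was with Tagln, an actin-binding protein of contractile cells (-0.28), and that of Mmp3 was with Acta2, smooth muscle actin (-0.26).

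**Figure D3:**
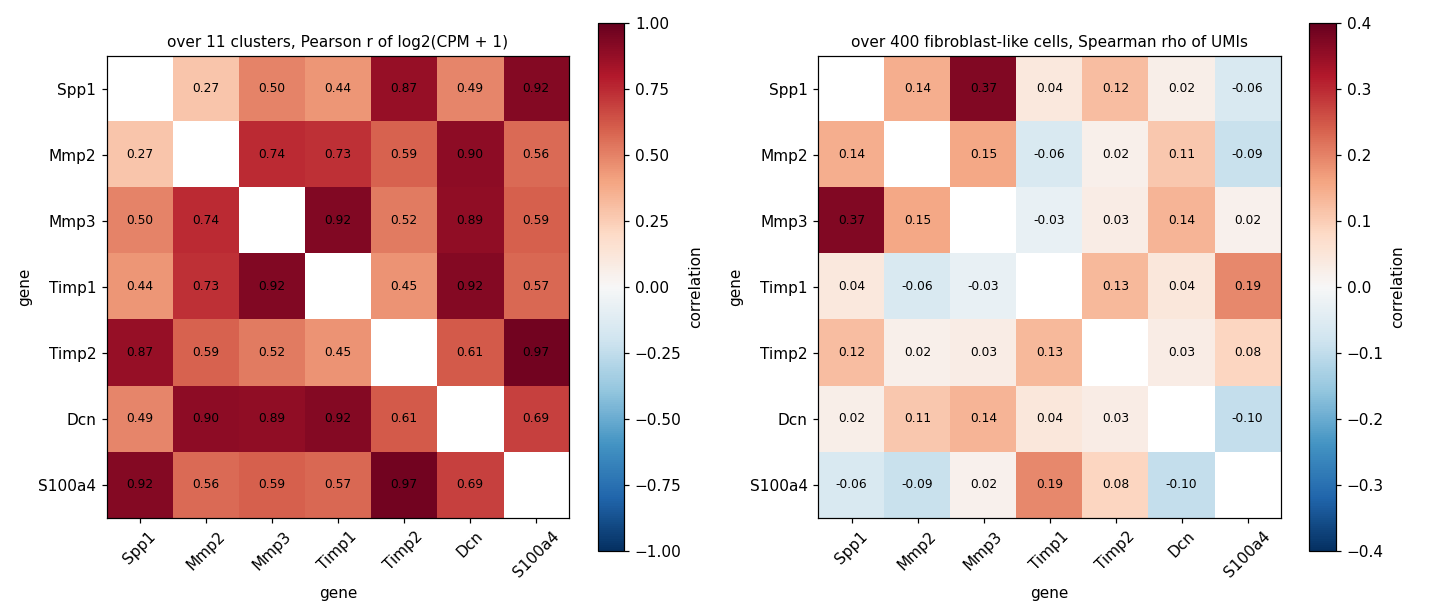
Correlation of each pair of the 7 genes, as Pearson's r of log2(CPM + 1) over 11 clusters (left) and as Spearman's rho of thinned UMIs over 400 fibroblast-like cells (right), with different colour scales. Spp1 pairs with S100a4 (0.92) and Timp2 (0.87) over clusters, and with Mmp3 (0.37) over fibroblast-like cells.

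Among the other clusters, Spp1 was higher in naive pluripotency-like than in cluster 2 cells. It stood at 186 CPM against 28.5 CPM, a ratio of 6.53 (6.10 to 7.01), and of 7.94 (7.33 to 8.61) without doublets. Timp1 stood at 29.2 against 18.7 CPM, a ratio of 1.56 (1.41 to 1.72). The order was the reverse for Mmp2, at 2.20 against 6.93 CPM, and for Timp2, at 2.96 against 6.84 CPM, ratios of cluster 2 to cluster 1 of 3.16 (2.44 to 4.12) and 2.31 (1.83 to 2.94). Both levels of both genes lay below those of cell-free droplets, 8.26 CPM for Mmp2 and 14.4 CPM for Timp2. Per barcode, however, Mmp2 had 0.0165 UMIs in cluster 1, 0.0473 in cluster 2 and 0.00179 in cell-free droplets. For Timp2 these counts were 0.0222, 0.0466 and 0.00312. With expected free RNA subtracted, the log2 ratios of cluster 1 to cluster 2 were -1.39 for Mmp2 and -1.07 for Timp2. The part of free RNA was not tested, and no difference in expression is read from these ratios. Mmp3 did not differ beyond counting error, at 1.41 and 1.49 CPM, a ratio of 0.945 (0.626 to 1.43). These ratios depend on where the clusters are drawn, and in each new clustering both clusters were picked again by their naive and primed epiblast marker sums. Under a lenient filter of 500 or more genes and up to 20% mitochondrial UMIs, the log2 ratio of Spp1 was 2.01 in place of 2.67. That of Timp1 then was 0.078 in place of 0.61, and that of Timp2 was -0.22 in place of -0.99. With a strict filter of 2000 or more genes and up to 5% mitochondrial UMIs, the log2 ratio of Mmp2 was -2.61 in place of -1.31, and that of Timp2 was -0.32.

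Cells were also grouped by their naive markers in place of their cluster. Cells outside clusters 8 and 11, without doublets and thinned, were placed in 5 bins by their UMIs of 13 naive markers, none of which is among the 7 genes. The bins differ in their clusters: cluster 1 gave 0.0945% and cluster 2 17.8% of the cells in the lowest bin, the rest coming from other clusters, and cluster 1 gave 97.4% of the highest bin. The share of cells with an Spp1 UMI was 2.93% (2.37 to 3.58%, 3173 cells) at 0 or 1 marker UMI, 4.70% at 2 to 4, 9.42% at 5 to 9, 24.3% at 10 to 19 and 29.7% (27.2 to 32.3%, 1279 cells) at 20 to 54. The share with Timp1 was 2.87% (2.32 to 3.51%) in the first bin and 6.41% (5.13 to 7.90%) in the last. Over the same bins Mmp2 went from 2.74% (2.20 to 3.37%) to 0.156% (0.0189 to 0.564%), and Timp2 from 2.74% (2.20 to 3.37%) to 0.704% (0.322 to 1.33%). Mmp3, Dcn and S100a4 stayed at or below 0.391% in every bin. Spp1 and Timp1 were therefore more often detected in the highest bin than in the lowest, and Mmp2 and Timp2 less often, between bins drawn from different clusters.

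**Figure D4:**
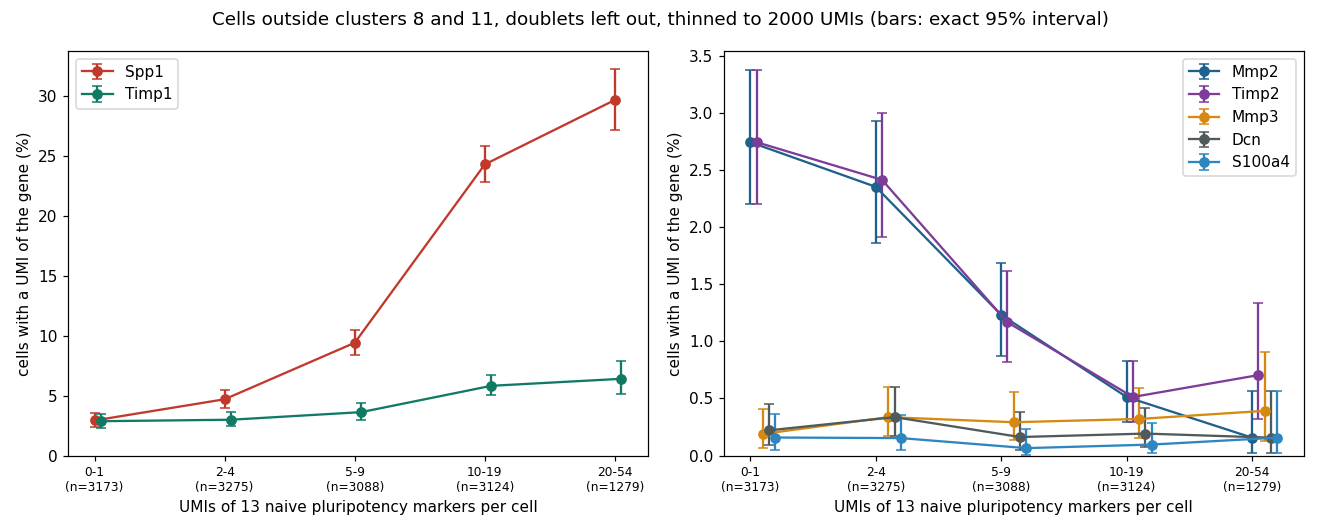
Share of cells with a UMI of each gene (percent, exact 95% intervals) by the cell's UMIs of 13 naive pluripotency markers, for cells outside clusters 8 and 11, without doublets and thinned to 2000 UMIs. Spp1 goes from 2.93% in the first bin to 29.7% in the last (left), while Mmp2 goes from 2.74% to 0.156% (right).

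Free RNA and mixed droplets bear on low levels of a gene as abundant as Spp1. Spp1 stood at 152 CPM (146 to 159) in cell-free droplets, against 186 CPM in the naive pluripotency-like cluster and 28.5 CPM in cluster 2. These are levels per UMI, and droplets and cells differ in their UMIs. Counted per barcode, Spp1 had 1.40 UMIs in the naive pluripotency-like cluster, 0.194 in cluster 2 and 0.0330 in cell-free droplets. For Timp1 these counts were 0.219, 0.128 and 0.00523. With expected free RNA subtracted, the log2 ratio of Spp1 between the 2 clusters was 2.89 in place of 2.67. There were 132 Spp1 UMIs for each Mmp3 UMI in naive pluripotency-like cells, against 15.8 in cell-free droplets and 3.67 in the fibroblast-like cluster. Per Timp1 UMI the numbers were 6.39 in these cells and 6.31 in cell-free droplets, so the ratio to Timp1 was about that of free RNA. The part of free RNA in the Spp1 and Timp1 levels was not tested. Among cells with no UMI of any of 15 fibroblast markers, 27.5% (26.1 to 28.9%, 4034 cells) had an Spp1 UMI, and 34.4% (28.9 to 40.1%, 294 cells) of those with at least 1. In cluster 2 the ratio of Spp1 to Mmp3 UMIs was 19.1. For Mmp2, Mmp3, Timp2, Dcn and S100a4 the levels in clusters 1 and 2 lay below those of cell-free droplets, which were 8.26, 9.67, 14.4, 4.10 and 5.76 CPM. Per barcode, cell-free droplets held fewer UMIs of each of these genes than cells of either cluster, and the part of free RNA in these levels was not tested. Timp1 stood at 24.1 CPM (21.8 to 26.7) in cell-free droplets, between its levels in cluster 2 and cluster 1.

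Most other matrix genes assessed were likewise at least 2-fold higher in the fibroblast-like cluster, where 17.5% of all genes assessed were. Of the matrix metalloproteinases, 7 of 21 were assessed and all 7 were at least 2-fold higher, with a median log2 ratio of 4.51 against -0.15 over all genes assessed. Beside Mmp2 and Mmp3 these were Mmp10, a stromelysin, at 38.6 CPM, Mmp13, a collagenase, at 34.5 CPM, Mmp19 at 29.3 CPM, Mmp14, a membrane-bound activator of pro-MMP2, at 104 CPM, and Mmp23 at 29.5 CPM. Of the inhibitors, 8 of 11 were assessed and all 8 were higher, among them Timp3 at 373 CPM, Serpinf1 at 175 CPM and Tfpi2 at 57.4 CPM, against 6.37, 2.73 and 0.266 CPM in the other cells. Since the members count in these lists, 2 in each, the counts share what the members were chosen by. The 7 metalloproteinases stood at no more than 10.1 CPM in the other cells. They were thus assessed only through this cluster, as were Timp3, Serpinf1 and Tfpi2. This nearly fixed their call as higher in advance, and nothing is read from the counts.

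In the fibroblast-like cluster 15 of 17 other matrix proteases assessed, from a list of 25, were higher and none was lower. For this and the following lists, the shares over all genes assessed were 17.5% higher and 13.8% lower. Examples are Prss23 at 105 CPM, Ctsk, a collagen-degrading cathepsin, at 86.5 CPM, and Adamts5, an aggrecanase, at 45.9 CPM. Small leucine-rich proteoglycans were higher in 4 of 4 assessed, from a list of 11: with Dcn these were Bgn at 627 CPM, Lum at 329 CPM and Ogn at 24.5 CPM. The matricellular list had 10 of 10 assessed higher, from a list of 15, among them Fbln2 at 622 CPM, Thbs1 at 616 CPM and Tnc at 452 CPM. Of the S100 proteins 7 of 7 assessed were higher, from a list of 14, with S100a6 at 13186 CPM, S100a13 at 148 CPM and S100a16 at 46.2 CPM. Partners of decorin were higher in 4 of 5 assessed, from a list of 8: Lrp1, an endocytic receptor, stood at 306 CPM and Tgfbr2, a TGF-beta receptor, at 113 CPM, while Tgfb2 was highest in cluster 6, at 78.6 CPM. Bgn, Lum and Fbln2 are also among the markers that named the cluster. In the 8 lists no gene assessed was at least 2-fold lower in this cluster. Genes under 20 CPM in the other cells were assessed only through this cluster and could not be called lower. Among them were the 4 proteoglycans, at no more than 1.73 CPM in the other cells. No common direction is therefore read from the lists.

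The macrophage-like cells shared part of the matrix enzymes of the fibroblast-like cells. Mmp12, macrophage elastase, stood at 1539 CPM there and at 13.9 CPM in the fibroblast-like cluster, and with it Mmp8, Mmp13 and Mmp14 exceeded the other cells by 2-fold or more, while Mmp3 was lower. Of these, Mmp13, at 25.5 CPM, and Mmp14, at 41.7 CPM, were also raised in the fibroblast-like cluster. Mmp8 stood at 20.9 CPM. The macrophage-like cluster held 431390 UMIs in all, so the calls of Mmp8 and Mmp13 rest on few UMIs. Of the inhibitors assessed, Timp2 and Cst3, cystatin C, were higher, Cst3 at 1013 against 102 CPM, and Timp1, Timp3 and Serpine2 were lower. Other proteases were higher in 11 of 13 assessed and lower in 1, with Ctsb at 3778 CPM, Ctsd at 3092 CPM and Ctsl at 8213 CPM, all lysosomal cathepsins. These 3 were raised in the fibroblast-like cluster too, where they stood at 488, 432 and 3260 CPM. Of the small leucine-rich proteoglycans both assessed, Dcn and Bgn, were lower, and of the matricellular proteins Spp1 alone of 6 assessed was higher. The cells compared with include the fibroblast-like cluster, outside which Dcn and Bgn stood at 0.858 and 1.22 CPM, and Timp3 and Serpine2 at 6.37 and 52.4 CPM. All 6 S100 proteins assessed were higher, S100a6 at 1912 CPM. The median log2 ratio over all genes assessed in this cluster was -0.42, with 14.9% at least 2-fold higher and 22.4% at least 2-fold lower. Genes under 20 CPM in the other cells were assessed only through this cluster and could not be called lower. Nothing is therefore read from the counts.

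**Figure D5:**
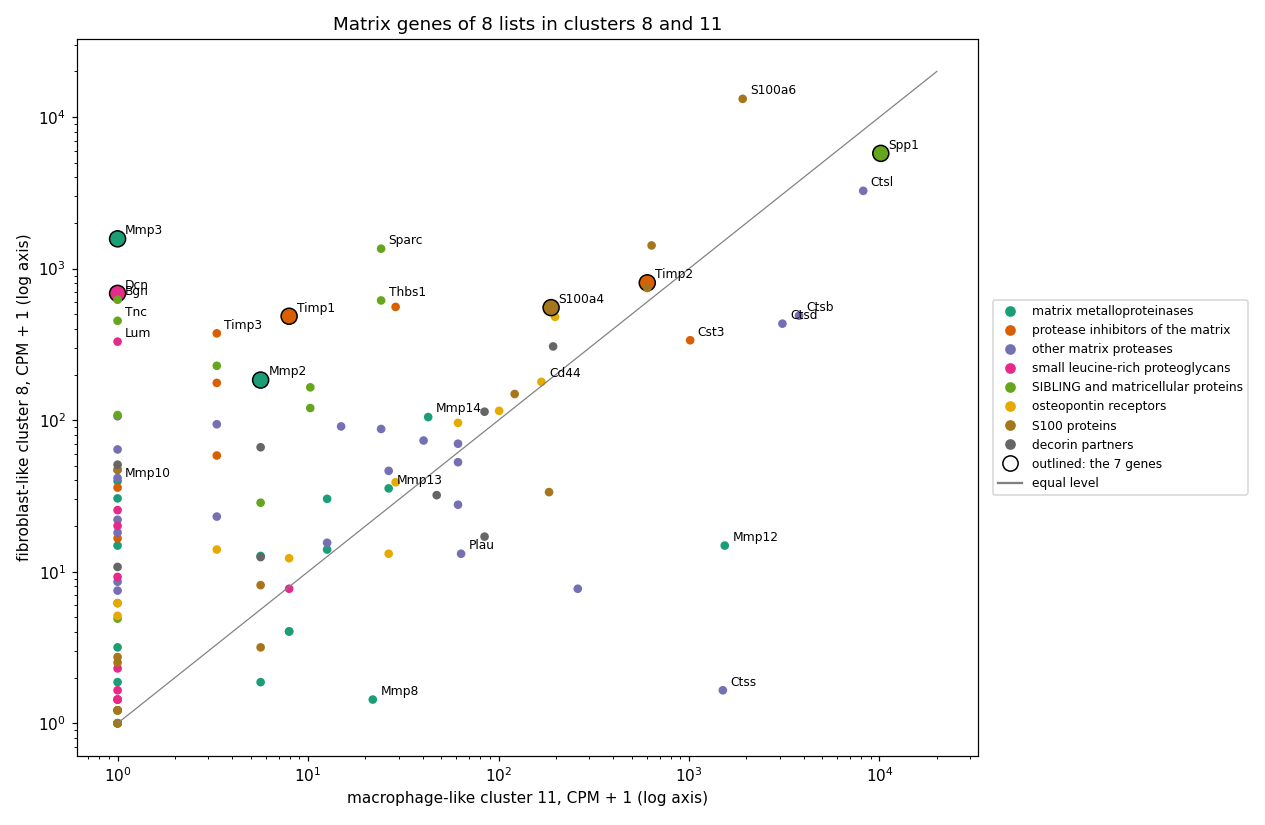
Level of the genes of 8 matrix lists in the fibroblast-like cluster (vertical) and the macrophage-like cluster (horizontal), as CPM plus 1 on log axes, with the 7 genes outlined and a grey line of equal level. Spp1 and Timp2 lie within 2-fold of the line, and S100a4 is 2.94-fold higher in the fibroblast-like cluster. Mmp3 and Dcn are at 0 in the macrophage-like cluster. Mmp12 lies far to the macrophage-like side, at 1539 CPM against 13.9.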

How the data were processed

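The values used are raw UMI counts per gene and barcode, as the authors deposited them, from droplet sequencing with 3' chemistry. The file headers name Cell Ranger 8.0.1, and the submitters' processing notes also name Seurat, with no version. A deposited table lists the tag call of each of 21593 called cells: 21465 were unassigned and 123 carried 1 tag. The tags CMO311 and CMO312 match no sample label, and the labels describe 1 channel per sample, so the matrix was treated as 1 pooled sample, with no test and no p-value. The genome build is not given in the sources used here.

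Cells with 1000 or more genes and no more than 10% mitochondrial UMIs were kept, and these had 1265 to 34748 UMIs. Counts were scaled to 10000 per cell and logged; clusters came from leidenalg 0.10.2 and scanpy 1.11.5 at resolution 0.5, from 2000 variable genes, 30 components and 15 neighbours. The 7 genes and cell-cycle genes were excluded from the variable genes. CPM came from UMIs summed per cluster, with exact Poisson intervals, and log2 ratios used a pseudocount of 1 CPM. Ratios of CPM have exact conditional binomial intervals. A gene was assessed for a 2-fold difference if it reached 20 CPM on either side. For shares and Spearman's rho, cells were thinned to 2000 UMIs, leaving out 294 shallower cells, 1 of them fibroblast-like. Scrublet, at an expected rate of 0.1, called 2145 doublets (12.7%), which were left in the sums. As cell-free droplets, 72027 barcodes with 150 to 300 UMIs and no cell call were summed. All 21593 called barcodes are distinct and share 1 suffix. The fold, thinning and correlation steps were tested on simulated data.

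The members, the marker lists and the matrix lists were chosen with earlier results of these data known. Clusters were named by a rule made with their genes in view: at least 2 markers among the 10 leading genes, at least 3 raised, and more leading markers than any other list. Named genes were the 7 members, per matrix list up to 3 others with the largest ratio between clusters of at least 100 cells, and per member the 3 most similar genes. The comparison of the naive pluripotency-like cluster with cluster 2, its alternatives, and other draws of the thinning were chosen after seeing the data. Genes of the macrophage-like cluster, Mmp14, Mmp23 and the genes of lowest rho were chosen after their values were seen. Some choices differ from the plan: similarity over clusters was restricted to genes with at least 20 CPM in their highest cluster, and all pairs of genes in at least 10% of cells stand in for pairs of like detection. The alternatives tried were other cell filters, resolutions, doublet handling, class rules, totals, pseudocounts and thinning depths.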

Additional observations from a re-analysis of the deposited data

Results flagged for a closer look

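The 4752 called cells that were not kept, because they had under 1000 genes or over 10% mitochondrial UMIs, enter no comparison above. In them the Poisson intervals of Spp1, Mmp3, Dcn and S100a4 lay wholly above those of cell-free droplets. No share over all genes is given beside these 4, so nothing is read from their number. Spp1 stood at 198 CPM (Poisson interval 188 to 209) against 152 CPM (146 to 159), and Mmp3 at 15.7 CPM (12.8 to 19.0) against 9.67 CPM (8.19 to 11.3). Dcn stood at 8.29 CPM (6.23 to 10.8) against 4.10 CPM (3.16 to 5.23), and S100a4 at 14.1 CPM (11.4 to 17.3) against 5.76 CPM (4.63 to 7.08). In the 3345 of these cells with under 1000 genes the levels were 293, 27.0, 13.7 and 25.5 CPM, and in the 1407 with enough genes but over 10% mitochondrial UMIs they were 102, 4.04, 2.80 and 2.49 CPM. Timp2, at 18.7 CPM (15.6 to 22.4) against 14.4 CPM (12.6 to 16.4), was higher with overlapping intervals. The gap of the 4 genes lay in the cells with few genes. The source of this RNA was not tested.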

How the results depend on the processing

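No paired analysis was possible because the counts lie in 1 pooled matrix with no replicate. No log2 ratio changed sign: 31 of 77 alternative values for the fibroblast-like cluster and 19 of 40 for the naive pluripotency-like cluster against cluster 2, or the clusters picked in their place, lay outside the counting interval of the value above, and the cause was not tested. The fibroblast-like class held 401 to 636 cells over the settings. All 7 genes were highest in it among clusters of at least 100 cells, 6 among all clusters, and 5 had over 50% of their UMIs in it, under each alternative that gave a value. The genes were chosen with these levels in view, and no share over all genes stands beside the counts, so nothing is read from them. Cells classed by collagen UMIs gave no value over clusters. These percent thresholds were set after the values had been seen. Depth limited the shares: 5 genes had a UMI in over 40% of fibroblast-like cells thinned to 2000 UMIs, 2 at 1000, 7 at 3000 and 6 without doublets.

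The fibroblast-like log2 ratios, with a pseudocount of 1 CPM, were 5.55 for Spp1, 4.40 for Mmp2, 9.37 for Mmp3, 4.48 for Timp1, 6.19 for Timp2, 8.53 for Dcn and 7.80 for S100a4. In the same order they were 5.75, 4.76, 9.72, 4.81, 6.48, 8.86 and 8.13 without doublets, and 5.45, 3.45, 7.12, 4.01, 5.35, 6.001 and 5.61 with a pseudocount of 10 CPM. With 0.1 CPM, Mmp2 was at 4.55, Mmp3 10.05, Timp2 6.31, Dcn 9.48 and S100a4 8.44. Classing cells by at least 5 collagen UMIs gave Spp1 5.05, Mmp3 7.96, Timp1 4.39, Timp2 5.88, Dcn 7.82 and S100a4 7.15. Spp1 was at 5.45 with the lenient and 5.68 with the strict filter (S100a4 8.11), 5.46 with the 7 genes kept in the clustering, 5.59 with free RNA subtracted and 5.49 over totals without mitochondrial and ribosomal protein genes.

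Against cluster 2, the naive pluripotency-like log2 ratios were 2.67 for Spp1, 0.61 for Timp1, -1.31 for Mmp2 and -0.99 for Timp2. Cluster 2 was the cluster with the highest summed level of primed epiblast markers. Where cells were clustered anew, both clusters were picked again by their naive and primed epiblast marker sums, so the cells compared differ between settings. In the same order they were 2.01, 0.078, -1.95 and -0.22 with the lenient filter, 2.18, 0.38, -2.61 and -0.32 with the strict filter, and 2.35, 0.45, -0.47 and -0.38 with a pseudocount of 10 CPM. At resolution 1 Spp1 was at 2.34, Mmp2 -2.38 and Timp2 -0.49, and at resolution 0.25 Spp1 was at 2.34. Spp1 was at 2.94 without doublets, 2.27 with the 7 genes in the clustering and 2.89 with free RNA subtracted.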

Other observations

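The median tag counts of the clusters that held most of the 7 genes differed from those of the other cells. Fibroblast-like cells had a median of 2034 counts of CMO311 and 67 of CMO312, and macrophage-like cells had 1035 and 21. Over all kept cells the medians were 1054 and 400, and over naive pluripotency-like cells 1074.5 and 334. The next lowest cluster median of CMO312 was 324, in cluster 4. Neither tag names a sample in the labels.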
